A study of Homo sapiens with 8 samples.

Results

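The comparison described here is the difference of the prednisolone effect between cells with an shRNA against BTG1 and cells with a control shRNA. For each transcript cluster (the probe sets that an exon array assigns to one transcribed locus) it is the prednisolone change on the arrays labelled BTG1 shRNA minus the prednisolone change on the control shRNA arrays. It uses all 8 of the 8 arrays of the study and all 17881 measured clusters. The cells were labelled as RS4;11, an established line of B-cell precursor acute lymphoblastic leukemia with an MLL fusion, and were exposed for 8 h. The 4 groups were control shRNA with vehicle, control shRNA with prednisolone, BTG1 shRNA with vehicle and BTG1 shRNA with prednisolone, with 2 arrays each. All cells had been transduced with an shRNA vector, and the labels give neither the prednisolone dose nor whether a group's replicates were separate cultures or whether its cells were 1 clone. The p-values therefore reflect the spread among these particular arrays, and that spread may be only technical. By its labels the comparison asks whether lowering BTG1 alters the transcriptional response to prednisolone. The lineage markers below go against those labels, so an effect of lowering BTG1 cannot be told apart from a difference of lineage.

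Prednisolone is a synthetic glucocorticoid. It binds the glucocorticoid receptor, encoded by NR3C1, which leaves its chaperone complex, enters the nucleus and changes transcription, in part through direct binding to DNA and in part by opposing NF-kB and AP-1. In lymphoid cells the response includes the receptor gene itself, brakes on growth signalling and the pro-apoptotic gene BCL2L11, and it can end in cell death. BTG1 belongs to the BTG/TOB family of antiproliferative proteins, which bind the arginine methyltransferase PRMT1 and the CCR4-NOT deadenylase.

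Levels are log2 values, so a difference of 1 is a 2-fold change. The median absolute difference between the arrays of a group was 0.44 for control vehicle and 0.18 to 0.25 for the other groups, and values were spread least on the first control vehicle array (interquartile range 2.95 against 3.39 to 3.80). The labels were checked against lineage markers. The mean level of 17 T-cell markers was 4.23 to 4.99 on the control arrays and 8.32 to 8.50 on the arrays labelled BTG1 shRNA, and that of 19 B-lineage markers was 7.41 to 7.98 and 4.07 to 4.31. CD3D, a subunit of the T-cell receptor complex, read 3.24 to 3.42 on the control arrays and 10.97 to 11.49 on the arrays labelled BTG1 shRNA. CD79A, a subunit of the B-cell receptor, read 9.89 to 10.14 and 4.83 to 4.92. These arrays therefore go against their labelled cell line and are called the arrays labelled BTG1 shRNA. In every difference below, the shRNA and the lineage difference cannot be told apart.

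Prednisolone changed many genes on the control arrays that stayed near their vehicle level on the arrays labelled BTG1 shRNA. The effects differed for 24 clusters (0.134% of all tested) at an adjusted p under 0.05 in the limma interaction test. The difference was negative for 19 of them (0.106%), from -4.45 to -2.08, with SGK1, P2RY14 and RASSF4 among the genes that rose on the control arrays. It was positive for 5 (0.028%), from 2.23 to 3.41, namely PRICKLE1, IL1B, PDGFRB, PLAUR and GNAZ, all of which fell on the control arrays. All 24 clusters were also called for the prednisolone effect in control cells, where the size of the change was 1.87 to 4.64, and 0 were called on the arrays labelled BTG1 shRNA, where the change was -0.66 to 0.73. In 18 of the 24 that change lay within 0.25 of 0, and in 22 its 95% interval included 0. Over all clusters the change on these arrays had a median of 0.03 and an interquartile range of 0.25. Only 186 of all clusters had an unadjusted p under 0.05 for it in limma. A change near 0 was thus common on these arrays, and these counts do not set the 24 apart. The change had the same sign in both shRNAs and was smaller with the BTG1 label in 11 clusters, and had opposite signs in 13. It was larger with the BTG1 label in 0.

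The number of calls depended on single arrays. The standard error of the difference had a median of 0.34, 1664 clusters had an unadjusted p under 0.05, and the last called cluster, DNMT3B, had an adjusted p of 0.0494 against 0.0553 for the next, TXLNB, in limma. When the second control prednisolone array, BTG1 vehicle array 1 or 2, or BTG1 prednisolone array 1 or 2 was left out, limma called 0 clusters, with 680, 909, 1007, 762 and 2025 at an unadjusted p under 0.05. Without the first control vehicle, second control vehicle or first control prednisolone array it called 24, 15 and 7, of which 15, 10 and 5 were among the 24. In each of these 8 fits all 24 kept their direction and an unadjusted p under 0.05. Every one of the 24 had the same sign in all 16 ways of taking 1 array from each group, as had 4529 of all clusters (25.3%). The 24 were chosen by the test on these same arrays, so the kept direction and sign are not independent support. After quantile normalization the split was 24 negative and 12 positive in place of 19 and 5. With the replicate number as a block it was 63 and 33, and with a block within each shRNA 181 and 58. The replicate numbers did not clearly pair the arrays, so these larger counts are given only as alternatives.

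**Figure D1:**
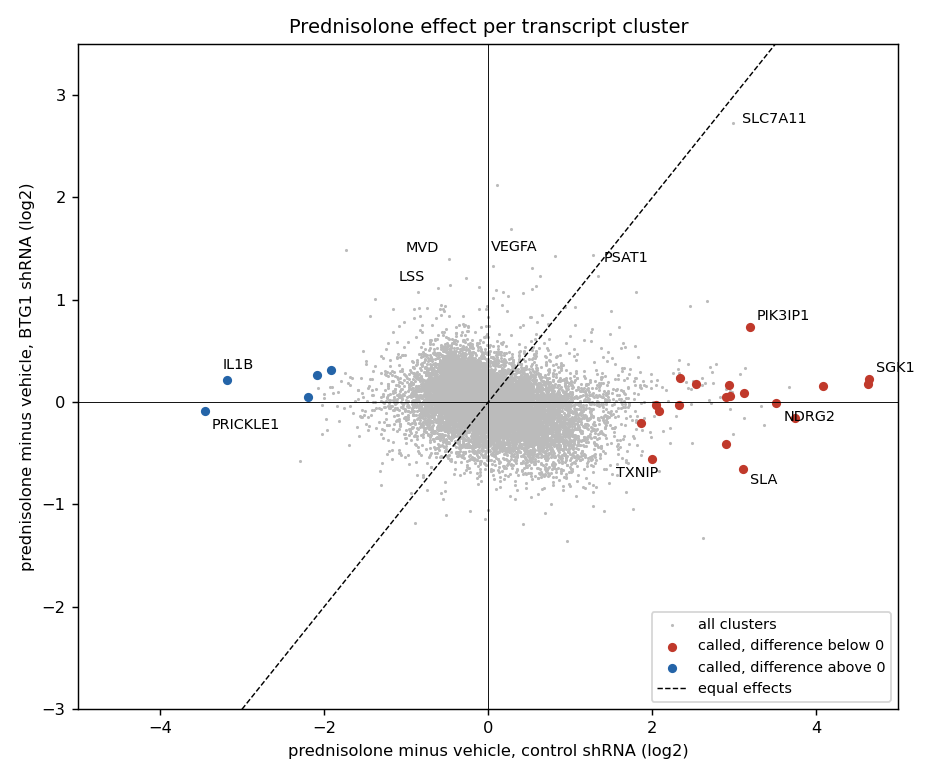
Prednisolone minus vehicle on the control shRNA arrays (horizontal axis, log2) against the same on the arrays labelled BTG1 shRNA (vertical axis, log2), 1 point per transcript cluster, with the 24 called clusters in colour and equal effects on the dashed line. The called clusters lie 1.87 to 4.64 from 0 along the horizontal axis and between -0.66 and 0.73 on the vertical axis, while SLC7A11 lies close to the dashed line.

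Clusters called on the control arrays were also read on the arrays labelled BTG1 shRNA. The control effect is part of the difference, so a smaller change with the other shRNA follows in part from this choice, and it supports nothing. On the control arrays 271 clusters (1.52%) were called in limma, 166 up (0.928%) and 105 down (0.587%). The 166 had a median change of 1.78 in control and 0.11 on the arrays labelled BTG1 shRNA (quartiles -0.02 and 0.23), where 118 of 166 were above 0, against 58.1% of all clusters. Of these 166, 34 were below the 30th percentile (called dim here) on all 4 arrays with the BTG1 label, so that their level above background there is unknown. The 105 had a median of -1.38 in control and 0.04 with the BTG1 label. Of these 105, 13 were dim on all 4 arrays with the BTG1 label, where a fall could hardly be measured. By the 2-fold selection of the study's design, with no test, 691 clusters (3.86%) were up and 249 (1.39%) down in control, and 4 and 0 of these passed 2-fold in the same direction on the arrays labelled BTG1 shRNA. Both control counts moved widely, up or down, when a single control array was left out, so they are not stable.

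On the arrays labelled BTG1 shRNA limma called 0 clusters for prednisolone, with 186 at an unadjusted p under 0.05. There 25 clusters (0.14%) were over 2-fold up and 13 (0.0727%) over 2-fold down. Chosen this way round, the 25 had a median change of 1.14 with the BTG1 label and 0.18 in control, and the 13 had -1.09 and 0.69. The interquartile range of the prednisolone change over all clusters was 0.25 there and 0.53 on the control arrays. The 2 control vehicle arrays also differed most from each other (median absolute difference 0.44). How far this widened the control range was not tested. Across the 17881 clusters the changes in the 2 shRNAs correlated at -0.299. The points share arrays, and the value was 0.009 without the first control vehicle array and 0.061 without BTG1 prednisolone array 1.

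The negative differences were largest in size for the LILRA1;LILRB1 cluster and SGK1. SGK1, a serine/threonine kinase and a classic glucocorticoid target, read 4.20 and 4.07 with control vehicle and 8.48 and 9.07 with control prednisolone. The BTG1 label gave 3.85 and 3.81 with vehicle and 3.91 and 4.20 with prednisolone. Both control prednisolone arrays thus stood far above the other 6 arrays, which lay between 3.81 and 4.20. The change was 4.64 in control and 0.22 with the BTG1 label, a difference of -4.42 (SE 0.33, 95% interval -5.19 to -3.64, limma adjusted p = 0.00862). P2RY14, a receptor for UDP-sugars, read 3.25 and 2.83 with control vehicle, 6.84 and 7.40 with control prednisolone, 2.64 and 2.75 with BTG1 vehicle and 3.0 and 2.70 with BTG1 prednisolone. It was dim on every array except the control prednisolone arrays, where it was high. Its difference was -3.92 (SE 0.36, adjusted p = 0.0174 in limma).

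RASSF4, a member of the Ras association domain family, read 4.29 and 3.97, then 8.04 and 7.70 on the control arrays with vehicle and prednisolone. The arrays labelled BTG1 shRNA read 4.10 and 3.85, then 3.84 and 3.78. Again only the control prednisolone arrays were high, and the difference was -3.90 (SE 0.30, limma adjusted p = 0.00862). RASSF4 was dim on both BTG1 prednisolone arrays and on 1 control vehicle array. The cluster annotated LILRA1;LILRB1, leukocyte immunoglobulin-like receptors, read 5.30 and 6.0 with control vehicle and 10.32 and 10.23 with control prednisolone. The BTG1 label gave 3.54 and 3.34, then 3.89 and 3.34, below every control array, with overlap between treatments and dim on all 4 arrays. The difference was -4.45 (SE 0.40, limma adjusted p = 0.0174), and it cannot be assigned to 1 of the 2 annotated genes. The change was 4.63 in control and 0.17 with the BTG1 label, where the level above background is unknown.

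In some genes the vehicle level was already higher with the BTG1 label. NDRG2, of the N-myc downstream regulated family, read 4.84 and 4.72 with control vehicle and 8.29 and 8.28 with control prednisolone. With the BTG1 label it read 6.36 and 6.44 with vehicle and 6.28 and 6.51 with prednisolone, between both control groups. The change was 3.51 in control and -0.01 with the BTG1 label (difference -3.52, SE 0.24, 95% interval -4.08 to -2.95, limma adjusted p = 0.00847). SLA, an adaptor that dampens antigen receptor signalling, read 7.07 and 7.64 with control vehicle, 10.51 and 10.39 with control prednisolone, 9.71 and 10.22 with BTG1 vehicle and 9.03 and 9.57 with BTG1 prednisolone. It was thus high on the arrays labelled BTG1 shRNA before prednisolone. Its changes were 3.10 and -0.66, and the difference was -3.76 (SE 0.41, limma adjusted p = 0.0402).

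Over the 19 negative differences both BTG1 vehicle arrays were below both control vehicle arrays in 10 and above both in 7. The BTG1 prednisolone arrays were below the control prednisolone arrays in all 19, which follows in part from choosing clusters with a large rise in control. How many of all clusters were separated in these ways was not counted, so these counts are a description only. On the arrays labelled BTG1 shRNA 4 of the 19 were dim throughout (LILRA1;LILRB1, P2RY14, RIN2 and MYRIP) and 13 on no array. SGK1 and RASSF4 were dim on some of these arrays, at percentiles 27.9 to 35.6 and 26.8 to 33.0.

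PIK3IP1, GSDME, NFKBIA and TXNIP were also called. PIK3IP1, an inhibitor of PI3-kinase, read 4.62 and 4.24 with control vehicle and 7.78 and 7.46 with control prednisolone. BTG1-labelled arrays read 4.02 and 3.86, then 4.62 and 4.72, so the treatments did not overlap in either shRNA. The change was 3.19 in control and 0.73 (95% interval 0.24 to 1.21) with the BTG1 label, the highest of the 24, and the difference was -2.46 (SE 0.29, limma adjusted p = 0.0441). GSDME, a gasdermin that forms membrane pores once cut by caspase, read 5.52 and 5.94, then 8.53 and 9.16 on the control arrays. On the arrays labelled BTG1 shRNA it read 4.19 and 4.44, then 4.40 and 4.42, with overlap between treatments. The difference was -3.02 (SE 0.37, limma adjusted p = 0.0441).

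NFKBIA encodes the NF-kB inhibitor IkB-alpha. It read 8.66 and 8.86 with control vehicle and 10.85 and 10.76 with control prednisolone. The arrays labelled BTG1 shRNA read 7.07 and 7.28, then 7.09 and 7.19, all below the control arrays and overlapping with each other. The difference was -2.08 (SE 0.25, 95% interval -2.67 to -1.49, limma adjusted p = 0.0441).

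TXNIP binds thioredoxin and limits glucose uptake. It read 8.42 and 8.67 with control vehicle and 10.31 and 10.78 with control prednisolone. With the BTG1 label it read 9.35 and 9.23 with vehicle and 8.84 and 8.62 with prednisolone, so the treatments lay in the opposite order on these arrays. The changes were 2.00 and -0.56 (95% interval -1.07 to -0.05), and the difference was -2.56 (SE 0.31, limma adjusted p = 0.0441). Of the 14 and 4 called genes with a promoter matched in RefSeq, TXNIP was the only one whose promoter window, 250 bases before to 50 after the RefSeq start (GRCh38.p14), held GNACA, any 3 bases and TGTNC in a row. This is a loose form of the palindrome that the receptor binds and is its own reverse complement, so both strands were searched at once. It was found in 137 of 35116 promoters (0.39%), in 30 of 11386 promoters of genes on the array (0.263%), in 1 of 14 with a called negative difference and in 0 of 4 with a called positive one. The window lies at chr1:145996530-145996829 on the minus strand, and the capitals mark the match, which begins at -175 from the start.
TXNIP: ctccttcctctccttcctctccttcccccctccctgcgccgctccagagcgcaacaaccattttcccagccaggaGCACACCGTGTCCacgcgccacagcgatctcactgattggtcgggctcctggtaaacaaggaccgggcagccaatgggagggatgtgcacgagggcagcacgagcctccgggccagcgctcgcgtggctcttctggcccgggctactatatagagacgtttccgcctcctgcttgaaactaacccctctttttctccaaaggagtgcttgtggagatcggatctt

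Among the promoters of genes that were called in control cells, it was found in 3 of 121 with a rise and 2 of 68 with a fall. The matched stretches are shown to compare genes that moved either way.
TXNIP: GCACACCGTGTCC
MAP3K6: GCACAGGCTGTTC
OR7A5: GGACATAATGTAC
EEF2K: GGACACTGTGTAC
FKBP11: GAACAGCCTGTCC
TXNIP, the kinase gene MAP3K6 (difference -2.41, limma adjusted p = 0.0981) and the olfactory receptor gene OR7A5 (-1.42, adjusted p = 0.259) rose in control. EEF2K, the kinase of elongation factor eEF2 (1.32, adjusted p = 0.227), and FKBP11, an immunophilin (1.03, adjusted p = 0.416), fell. A match is a description of the letters and not a measured binding site.

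The other negative differences were of genes with varied roles. SMIM3, a small membrane protein, read 7.77 and 7.39 with control vehicle, 10.45 and 10.58 with control prednisolone, 7.35 and 7.28 with BTG1 vehicle and 7.44 and 7.51 with BTG1 prednisolone (difference -2.77, SE 0.27, limma adjusted p = 0.0246). It lay between 7.28 and 7.77 on all arrays other than the control prednisolone arrays. WDR91, a regulator of endosome maturation, differed by -2.36 (SE 0.25), KLF7, a Kruppel-like transcription factor, by -2.36 (SE 0.27) and RIN2, an activator of the small GTPase Rab5, by -2.84 (SE 0.33). CEMIP2, a cell-surface hyaluronidase, differed by -2.89 (SE 0.32), SLC31A2, a copper transporter, by -2.17 (SE 0.26), and MYRIP, which links Rab27 vesicles to myosin, by -2.11 (SE 0.26). DNMT3B, a de novo DNA methyltransferase, differed by -2.08 (SE 0.26). For these 7 genes the limma adjusted p was 0.0382 to 0.0494, the control change was 1.87 to 2.95 and the change with the BTG1 label was -0.21 to 0.23. Cluster 2427007, which has no gene symbol, read 7.24 and 7.82, then 10.23 and 10.64 in control and 9.07 and 8.93, then 8.39 and 8.79 with the BTG1 label (difference -3.31, SE 0.38, limma adjusted p = 0.0417). DNMT3B, the LILRA1;LILRB1 cluster and the cluster without a symbol fall outside the naming rule and were named after their values were seen, to complete the 24.

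**Figure D2:**
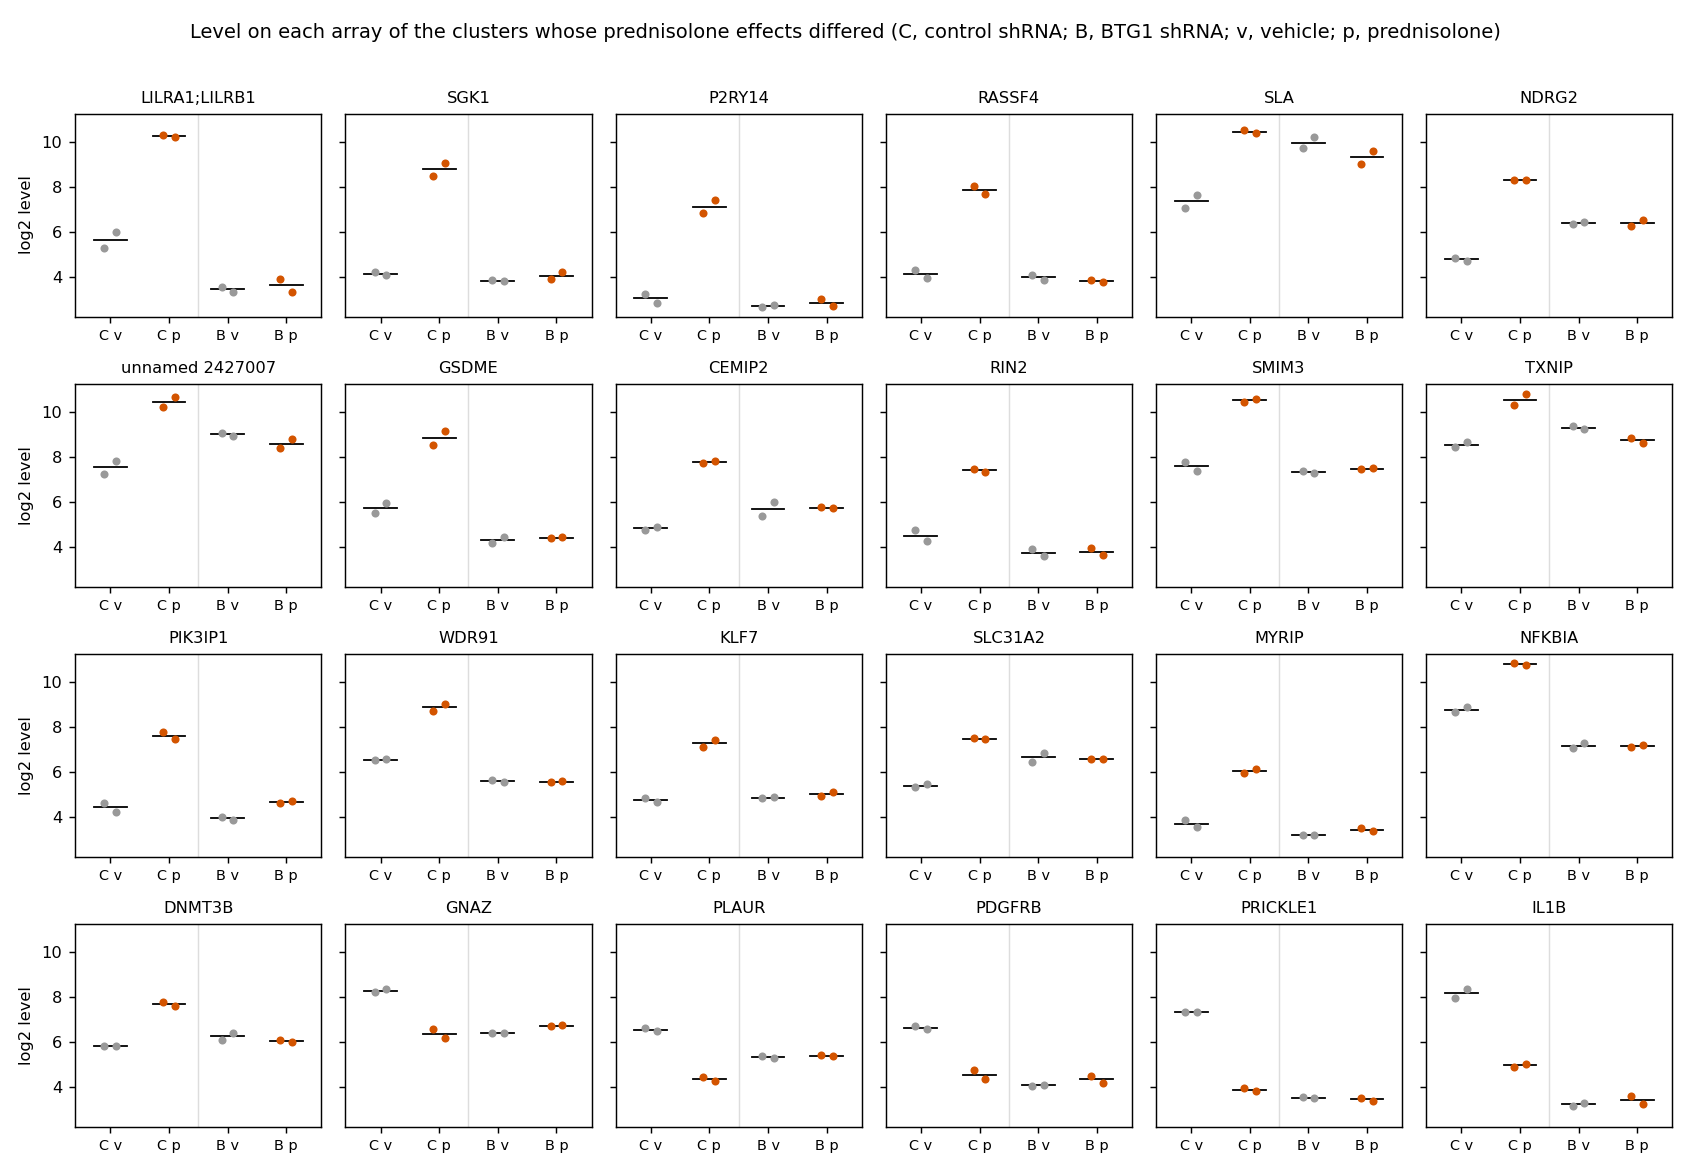
Log2 level on each array for the 24 called clusters, from the most negative to the most positive difference, with 2 points per group, a line at each group's mean and the same vertical axis in every panel. In the first 19 panels the control prednisolone arrays stand above the control vehicle arrays, and in the last 5 below them, while the 4 arrays labelled BTG1 shRNA span 0.08 (WDR91) to 1.19 (SLA) against 1.95 to 5.03 on the 4 control arrays.

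The positive differences were genes that fell with prednisolone on the control arrays and not with the BTG1 label. PRICKLE1, a planar cell polarity protein, read 7.34 and 7.35 with control vehicle and 3.95 and 3.82 with control prednisolone. The arrays labelled BTG1 shRNA read 3.55 and 3.52, then 3.52 and 3.38, all dim, so no fall could be measured there from this floor. The difference was 3.38 (SE 0.23, 95% interval 2.83 to 3.92, limma adjusted p = 0.00847). IL1B, the cytokine interleukin-1 beta, read 7.96 and 8.37, then 4.91 and 5.03 in control. With the BTG1 label it read 3.18 and 3.28, then 3.62 and 3.26, also dim throughout, and the difference was 3.41 (SE 0.30, limma adjusted p = 0.0174). For both genes the size of the difference depends on a level at the bottom of the measured range.

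The other 3 were above the dim range with the BTG1 label, PDGFRB only narrowly (percentiles 32.4 to 37.1 of these arrays). PLAUR, the urokinase receptor, read 6.61 and 6.48, then 4.46 and 4.25 in control, and 5.40 and 5.31, then 5.43 and 5.37 with the BTG1 label. It lay between the control groups on all 4 arrays labelled BTG1 shRNA, and the difference was 2.24 (SE 0.24, limma adjusted p = 0.0402). GNAZ, a G-protein alpha subunit, read 8.22 and 8.36, then 6.56 and 6.19 in control, and 6.40 and 6.41, then 6.71 and 6.74 with the BTG1 label (difference 2.23, SE 0.27, limma adjusted p = 0.0441). PDGFRB, a receptor tyrosine kinase, read 6.70 and 6.57, then 4.74 and 4.34 in control, and 4.06 and 4.09, then 4.49 and 4.18 with the BTG1 label (difference 2.36, SE 0.29, limma adjusted p = 0.0477). In all 5 genes the BTG1 vehicle arrays lay below the control vehicle arrays. For PDGFRB they were already below both control prednisolone arrays, and for GNAZ they lay between them. A fall to the control prednisolone level thus had little or no room in PDGFRB and GNAZ. In PLAUR the mean BTG1 vehicle level lay 0.999 above the mean control prednisolone level. TRIB1, a pseudokinase (2.03, SE 0.27, adjusted p = 0.066), PRICKLE2, a relative of PRICKLE1 (1.98, SE 0.27, adjusted p = 0.066), and FAM117A (1.67, SE 0.24, adjusted p = 0.0705) had the next smallest p in limma and did not pass. TRIB1 passed with quantile normalization (adjusted p = 0.0342), and TRIB1 and PRICKLE2 with the filter on low clusters (both 0.0476). PRICKLE2 was dim on all 4 arrays labelled BTG1 shRNA.

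The receptor gene and the targeted gene did not pass the test of the difference. NR3C1 read 9.72 and 10.24 with control vehicle and 10.63 and 10.90 with control prednisolone, with no overlap. With the BTG1 label it read 7.77 and 7.12 with vehicle and 7.25 and 7.25 with prednisolone, below every control array and with overlap between treatments. The change was 0.79 in control and -0.20 with the BTG1 label, a difference of -0.99 (SE 0.39, 95% interval -1.90 to -0.08, unadjusted p = 0.037, adjusted p = 0.532 in limma). It ranged from -1.71 to -0.26 over the 16 combinations of arrays. The cluster annotated BTG1;LINC01619 read 9.34 and 9.36, then 10.51 and 10.70 in control, and 7.15 and 7.42, then 8.14 and 7.80 with the BTG1 label. It was thus lower on all arrays labelled BTG1 shRNA, and prednisolone and vehicle arrays did not overlap in either shRNA. The changes were 1.26 and 0.68, and the difference was -0.58 (SE 0.28, 95% interval -1.23 to 0.08, limma adjusted p = 0.537).

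Well-known receptor targets had large differences with intervals away from 0 that were not called. The cluster annotated FKBP5;LOC285847 (FKBP5 is a co-chaperone that feeds back on the receptor) read 7.85 and 8.86, then 10.83 and 11.28 in control, and 8.78 and 8.57, then 8.80 and 9.22 with the BTG1 label. Its difference was -2.36 (SE 0.49, 95% interval -3.51 to -1.22, limma adjusted p = 0.193). TSC22D3, whose product GILZ mediates anti-inflammatory effects of glucocorticoids, read 6.79 and 6.81, then 9.51 and 9.43 in control. The BTG1 label gave 4.29 and 4.18, then 5.31 and 5.14, from a lower start and with no overlap between treatments. The change was 2.67 in control and 0.99 (95% interval 0.60 to 1.38) with the BTG1 label, and the difference was -1.68 (SE 0.24, 95% interval -2.24 to -1.13, limma adjusted p = 0.0705). PER1, a clock gene and direct receptor target, read 5.91 and 5.62, then 7.69 and 7.44 in control, and 5.73 and 5.77, then 5.52 and 5.62 with the BTG1 label. Here the vehicle levels overlapped between shRNAs, and the difference was -1.98 (SE 0.27, 95% interval -2.60 to -1.36, limma adjusted p = 0.066). PER1 was called in limma with centred arrays (adjusted p = 0.0344) and with the filter on low clusters (0.0476), and TSC22D3 after quantile normalization (0.0458).

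Among 25 classic glucocorticoid-induced genes, 3 had a called negative difference (SGK1, TXNIP and NFKBIA) and 0 a positive one. At an unadjusted p under 0.05, 10 were negative and 2 positive, against 5.04% and 4.27% of all clusters. The difference was below -1 in 9 of 25 (6.99% of all clusters) and negative in all 16 combinations in 11 of 25 (9.11%). The median difference was -0.82, against 0.20 over all clusters, with a median change of 0.57 in control and 0.17 with the BTG1 label. It was -0.45 without the second control vehicle array and -1.07 without the first. Among 23 glucocorticoid-induced genes described in lymphoid leukemia 5 were called negative (RASSF4, P2RY14, SLA, GSDME and PIK3IP1) and 0 positive, with 13 and 1 at an unadjusted p under 0.05. Their median difference was -1.02, with 1.20 in control and 0.16 with the BTG1 label. NFIL3, a leucine zipper transcription factor, had a difference of -2.78 (SE 0.49, limma adjusted p = 0.11). In this list WFS1, a membrane protein of the endoplasmic reticulum, lay on the other side, with -0.90 in control, 0.91 with the BTG1 label and a difference of 1.81. Both lists hold genes known to respond in such cells and were drawn up with earlier results of these data known, so their counts are not independent evidence.

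Receptor chaperones and coregulators had no called difference. Of 13 genes of the receptor and its chaperones, 0 were called and the median difference was 0.13, with FKBP4, a co-chaperone that favours receptor transport, at 0.99 (SE 0.36, limma adjusted p = 0.51). Of 17 coregulators and BTG-family genes 0 were called, with a median of -0.42 that was -0.14 without the first control vehicle array. At an unadjusted p under 0.05 the 2 lists held 3 and 2 genes, against 5.04% negative and 4.27% positive over all clusters.

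**Figure D3:**
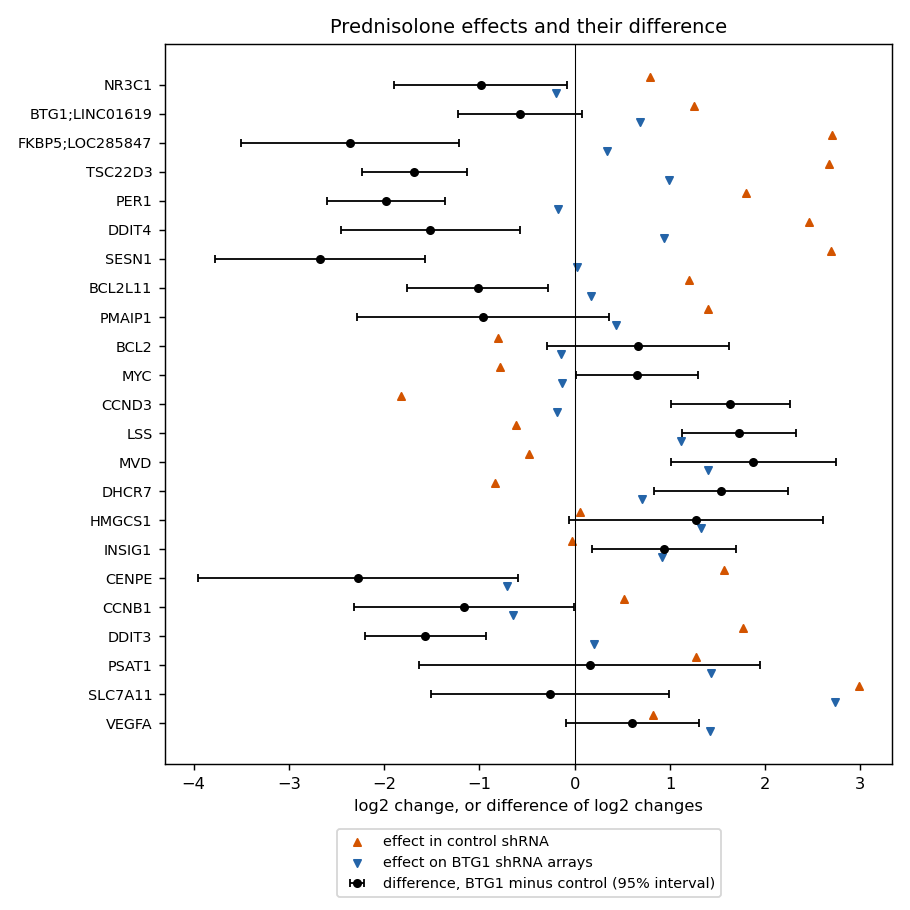
Difference of the prednisolone effects with its 95% interval (black) for 23 genes that were not called, beside the effect in control (upward triangles) and on the arrays labelled BTG1 shRNA (downward triangles), all in log2 units. The intervals of TSC22D3 and PER1 lie below 0 and those of LSS and MVD above 0, while those of SLC7A11 and PSAT1 include 0 with both effects on the same side.

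No gene of the apoptosis lists had a called difference. BCL2L11, the gene of the pro-apoptotic BH3-only protein BIM, read 4.42 and 4.52 with control vehicle, 5.45 and 5.88 with control prednisolone, 4.93 and 4.64 with BTG1 vehicle and 4.80 and 5.13 with BTG1 prednisolone. Prednisolone and vehicle arrays overlapped with the BTG1 label and not in control, and the difference was -1.02 (SE 0.32, 95% interval -1.76 to -0.28, limma adjusted p = 0.437). PMAIP1, which encodes NOXA, had changes of 1.40 and 0.44 and a difference of -0.97 (95% interval -2.29 to 0.36). BCL2, an inhibitor of apoptosis, had changes of -0.81 and -0.14 and a difference of 0.66 (95% interval -0.29 to 1.62, limma adjusted p = 0.546). Of 10 pro-apoptotic and 4 anti-apoptotic BCL2 relatives 0 were called, and of 13 caspase and apoptosome genes 0 were called, with 1, 0 and 4 at an unadjusted p under 0.05 in limma. Those 4 were BIRC2 (-1.53, SE 0.56), CASP6 (-1.46, SE 0.60), CFLAR (-1.03, SE 0.30) and, above 0, CYCS (0.75, SE 0.32). At that p 5.04% of all clusters were negative and 4.27% positive.

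Among 18 FOXO targets and brakes on PI3K and mTOR, PIK3IP1 and TXNIP were called negative and 5 were negative at an unadjusted p under 0.05. The shares over all clusters were 0.106% and 5.04%. SESN1, a sestrin that restrains mTORC1, read 5.47 and 6.10, then 8.01 and 8.95 in control, and stayed at 4.78 to 4.88 on all arrays labelled BTG1 shRNA (difference -2.67, SE 0.47, limma adjusted p = 0.111, and 0.0476 with the filter on low clusters). DDIT4, another mTORC1 inhibitor, had changes of 2.46 and 0.94 and a difference of -1.51 (95% interval -2.46 to -0.57, limma adjusted p = 0.347). The list's median difference was -0.34. PIK3IP1 and TXNIP are also members of a glucocorticoid list each, so the lists are not independent.

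The 17 NF-kB and inflammatory genes held called differences in both directions, positive for IL1B and PLAUR and negative for NFKBIA. At an unadjusted p under 0.05, 4 were positive and 1 negative, against 4.27% and 5.04% of all clusters, and 14 of 17 differences were above 0, as were 65.2% of all clusters. The list's median was 0.57, from -0.40 in control and 0.13 with the BTG1 label, and it was 0.24 without the first control vehicle array. RELB, an NF-kB subunit, differed by 1.16 (SE 0.43) and the cytokine TNF by 1.02 (SE 0.39), neither of them called. Of 23 immediate early and MAPK feedback genes 0 were called, with 3 at an unadjusted p under 0.05. Among them SPRY1, an inhibitor of receptor tyrosine kinase signalling, had changes of 2.97 and 0.10 (difference -2.88, SE 0.40, limma adjusted p = 0.0705), and IER2 had -1.49 and 0.40 (difference 1.89, SE 0.37, limma adjusted p = 0.163). SPRY1 was called after quantile normalization (limma adjusted p = 0.0212), with the filter on low clusters (0.0233), with a variance trend (0.0404) and without the first control vehicle array (0.0484).

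Cholesterol synthesis genes had a median difference of 0.88, and here the median change was larger on the arrays labelled BTG1 shRNA. Of 14 genes 0 were called, 6 were positive and 0 negative at an unadjusted p under 0.05 (background 4.27% and 5.04%), the difference was above 1 in 5 of 14 (background 2.52%), and 8 were positive in all 16 combinations of arrays (background 16.2%). LSS, lanosterol synthase, read 8.06 and 8.03, then 7.48 and 7.38 in control, and 8.79 and 9.03, then 10.14 and 9.91 with the BTG1 label. The treatments did not overlap in either shRNA and lay in opposite order, with a difference of 1.72 (SE 0.26, 95% interval 1.13 to 2.32, limma adjusted p = 0.0717). MVD, which makes isopentenyl diphosphate from mevalonate diphosphate, read 7.62 and 7.07, then 7.12 and 6.61 in control, and 8.11 and 8.09, then 9.65 and 9.35 with the BTG1 label. Here the control treatments overlapped, and the difference was 1.88 (SE 0.37, limma adjusted p = 0.169). DHCR7, the last enzyme of the pathway, had changes of -0.83 and 0.71 (difference 1.54, SE 0.30, limma adjusted p = 0.166), and mevalonate kinase MVK -0.27 and 1.21 (difference 1.48, SE 0.33, limma adjusted p = 0.227). On the arrays labelled BTG1 shRNA 5 of the 14 genes (HMGCS1, MVK, MVD, LSS and MSMO1) were over 2-fold higher with prednisolone, against 0.14% of all clusters, with none of them called there in limma. The list's median was 0.67 with the BTG1 label and -0.16 in control. It was 1.10 after quantile normalization and 0.71 to 0.97 with any 1 array left out.

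The amino acid response, driven by the transcription factor ATF4, had median changes of like size in both shRNAs. The median change of its 17 genes was 0.46 in control and 0.50 with the BTG1 label, the median difference was 0.05 and 0 were called, with 1 at an unadjusted p under 0.05 in limma. SLC7A11, the cystine transporter, read 5.88 and 6.61, then 8.70 and 9.76 in control, and 4.35 and 4.66, then 7.28 and 7.18 with the BTG1 label. It was well above vehicle in both shRNAs, with changes of 2.99 and 2.73 and a difference of -0.26 (SE 0.53, 95% interval -1.51 to 0.99, limma adjusted p = 0.772). PSAT1, an enzyme of serine synthesis, read 7.73 and 9.30, then 9.82 and 9.77 in control, and 8.47 and 9.52, then 10.79 and 10.08 with the BTG1 label (difference 0.16, 95% interval -1.63 to 1.95). These intervals are wide and do not show that the effects were equal. DDIT3, which encodes the stress factor CHOP, had changes of 1.77 and 0.20 and a difference of -1.57 (SE 0.27, limma adjusted p = 0.105). The log2 values of prednisolone minus vehicle were 1.17 and 0.61 for SESN2, a stress-induced sestrin, and 0.63 and 1.23 for VLDLR, a lipoprotein receptor, neither with a called difference. SLC7A11, PSAT1, MSMO1 and TM6SF1 were the 4 clusters over 2-fold up in both shRNAs. Outside the lists VEGFA, an angiogenic growth factor named after its values were seen, had changes of 0.82 and 1.42 (difference 0.61, 95% interval -0.09 to 1.31).

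Cell cycle genes showed differences that varied with single arrays. Of 17 genes of mitosis and G2/M 0 were called and 6 were negative at an unadjusted p under 0.05 in limma (5.04% of all clusters). The median difference was -1.11, from 0.54 in control and -0.40 with the BTG1 label. The median was -0.59 without the first control vehicle array and -1.39 without the second. CENPE, a kinesin of the kinetochore, read 4.66 and 6.12, then 6.48 and 7.43 in control, and 6.19 and 5.76, then 5.00 and 5.53 with the BTG1 label. The control vehicle arrays lay further from each other than the second of them lay from the first treated array. The difference was -2.28 (SE 0.72, 95% interval -3.95 to -0.60, limma adjusted p = 0.448). TTK, a spindle checkpoint kinase, differed by -1.96 (SE 0.72) and BUB1, a kinase of the same checkpoint, by -1.12 (SE 0.43). All 10 measured histone genes had negative differences (34.8% of all clusters), with 0 called and 2 at an unadjusted p under 0.05 (background 5.04%). Their median of -0.82 lay between -1.27 and -0.40 with any 1 array left out. H2BC21 differed by -1.11 (SE 0.27, limma adjusted p = 0.27). Of 22 DNA replication genes 0 were called and 1 was negative at an unadjusted p under 0.05 (background 5.04%). Their median was -0.30, and -0.06 without the first control vehicle array. CCND3, which encodes the G1 cyclin D3, read 10.46 and 10.25, then 8.60 and 8.47 in control and 9.35 to 9.74 on the arrays labelled BTG1 shRNA (difference 1.63, SE 0.27, limma adjusted p = 0.0981).

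MYC, a transcription factor of growth that glucocorticoids lower in many lymphoid cells, read 9.05 and 9.36, then 8.32 and 8.53 in control. With the BTG1 label it read 9.59 and 9.38, then 9.35 and 9.36, with changes of -0.78 and -0.13. The treatments did not overlap in either shRNA, and the difference was 0.65 (SE 0.27, 95% interval 0.02 to 1.29, limma adjusted p = 0.536). Of 14 MYC-network and ribosome biogenesis genes 13 had differences above 0, 0 were called and 5 were positive at an unadjusted p under 0.05, against 65.2% above 0 and 4.27% over all clusters. Their median was -0.65 in control, -0.08 with the BTG1 label and 0.36 for the difference. RRP12, a ribosome assembly factor, differed by 0.98 and MNT, a repressor that pairs with MAX, by 1.12.

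Lineage markers had no called difference. Of 19 B-lineage markers 0 were called, with 5 positive and 1 negative at an unadjusted p under 0.05 in limma and a median difference of 0.40. The shares over all clusters were 4.27% and 5.04%. CD22, a B-cell inhibitory receptor, read 8.40 and 8.69, then 7.0 and 6.90 in control and 3.40 to 3.79, dim throughout, on the arrays labelled BTG1 shRNA (difference 1.70, SE 0.29, limma adjusted p = 0.105, and 0.0443 after quantile normalization). SPIB, an ETS factor of B cells, differed by 1.90 (SE 0.33, limma adjusted p = 0.111). Of 17 T-cell markers 0 were called, with 1 at an unadjusted p under 0.05, LCK, a kinase of T-cell receptor signalling (difference 1.14, SE 0.25, limma adjusted p = 0.214). Their median difference was 0.23, and it was -0.14 without the first control vehicle array and 0.58 without the second. Markers of other blood and tissue cells had 0 called and 1 at an unadjusted p under 0.05, with medians of 0.54 for 11 myeloid, 0.51 for 8 erythroid and platelet and 0.29 for 12 stromal and epithelial genes. These medians were 0.25, 0.10 and 0.09 without the first control vehicle array and 0.98, 0.89 and 0.51 without the second. The mean myeloid level was 4.24 to 5.21 on the control arrays and 4.29 to 4.74 on the arrays labelled BTG1 shRNA.

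**Figure D4:**
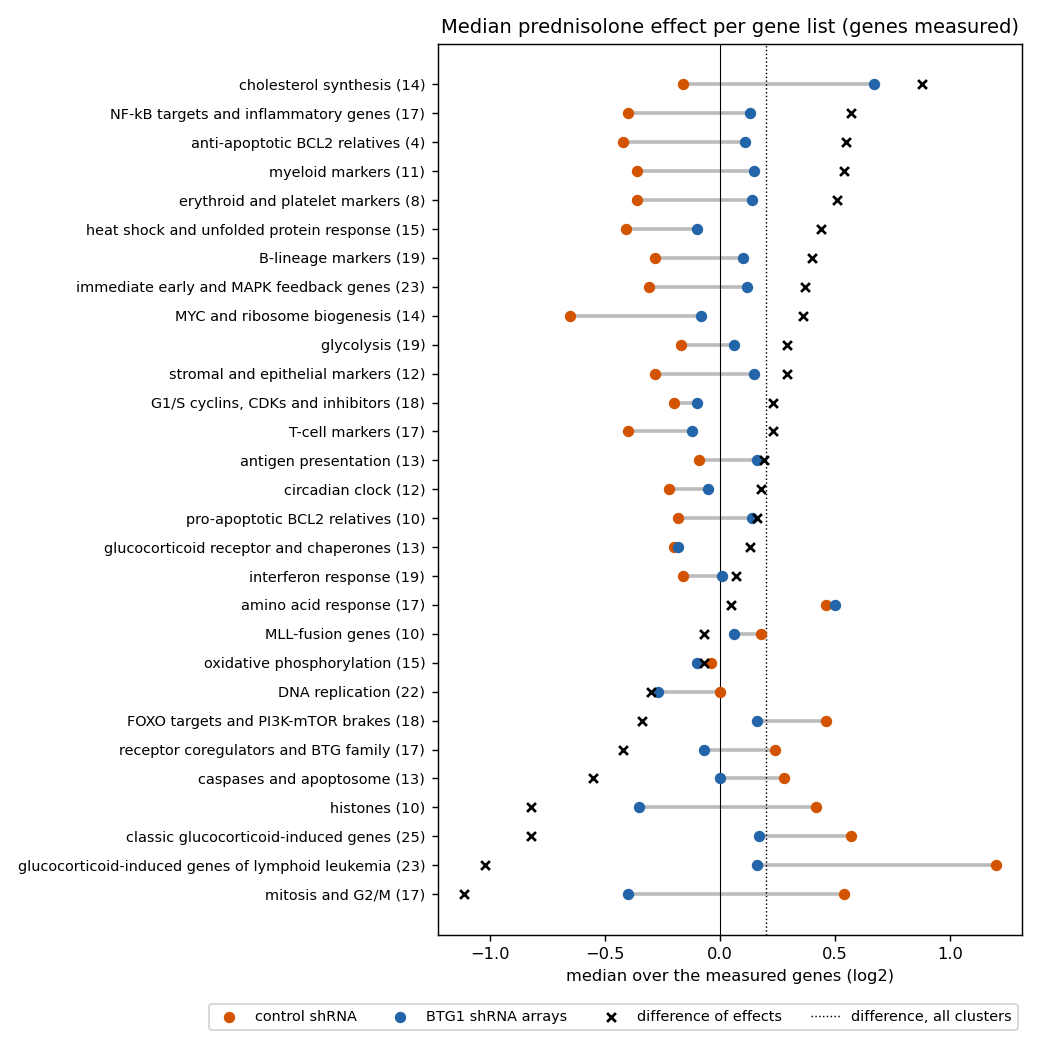
Median prednisolone change of each gene list in control (orange), on the arrays labelled BTG1 shRNA (blue) and the median difference (crosses), in log2 units, with the number of measured genes in brackets. The dotted line is the median difference over all clusters, 0.20, and the lists run from cholesterol synthesis at 0.88 to mitosis and G2/M at -1.11.

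The median difference over all 17881 clusters was 0.20 as deposited, 0.06 after quantile normalization and 0.03 after centring each array, and small positive list medians should be read against that shift. The remaining lists had 0 called genes each, with 0 to 4 per list at an unadjusted p under 0.05 in limma. Their median differences were 0.44 for heat shock and the unfolded protein response, 0.29 for glycolysis, 0.23 for G1/S genes, 0.19 for antigen presentation, 0.18 for the circadian clock, 0.07 for the interferon response, and -0.07 for both oxidative phosphorylation and MLL-fusion genes. The mean level of MLL-fusion genes was 8.66 to 9.04 on the control arrays and 5.19 to 5.43 with the BTG1 label, where FLT3 and PROM1 were dim throughout. For antigen presentation it was 8.37 to 8.56 and 5.41 to 5.68. Medians near 0 in these 2 lists therefore do not show like effects. SDHC, a subunit of respiratory complex II, had a large difference without a call. It read 2.82 and 6.78, then 6.67 and 8.16 in control, and 7.27 and 7.31, then 4.95 and 6.97 with the BTG1 label. Its replicates lay far apart and the control treatments overlapped, so that the difference of -3.94 had an SE of 1.73 (95% interval -7.98 to 0.09, limma adjusted p = 0.537).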

How the data were processed

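RNA of the 8 samples was hybridised to Affymetrix Human Exon arrays, 1 array each. The authors' deposited values are log2 RMA levels made in Partek, per the submitters' processing notes and the values, with versions not given in the sources used here. Nearly all deposited values lack the decimal point and are treated as a score until it is restored: of 143048 values 153 kept it (2.47 to 12.25). It was put after the first digit, or after the first 2 where a value starts with 1. The values then ran from 2.16 to 13.4, and the correlation between arrays rose from 0.446 to 0.587 to 0.872 to 0.995. The design had assumed log2 values, and the test stayed the same. Symbols came from the platform annotation (14432 clusters with 1, 2408 with several, 1041 with none), and 0 columns were unused.

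limma 3.58.1 in R 4.3.3 was fitted with 4 group means to all 8 arrays, with no filter, and p-values were Benjamini-Hochberg adjusted over 17881 clusters per contrast, of which 3 were used. Calls are at 0.05. Intervals cover 95%. The fit was tested on simulated data. Arrays give no counts, so their number limits precision.

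Named genes are, per direction, up to 15 called clusters with 1 symbol, the same sign in all 16 combinations and the largest difference, filled to 8 by p, plus NR3C1, BTG1, FKBP5, TSC22D3, SGK1, PER1, BCL2L11, BCL2, MYC, GSDME and P2RY14, and up to 4 genes per list by p. Other genes named as list members, VEGFA and TM6SF1 were chosen after their values were seen. A gene counts by its brightest cluster. Members, the 29 lists and the alternatives were chosen with earlier results of these data known. Lists share genes and were counted, not tested. Promoters are RefSeq's, GRCh38.p14. Alternatives were quantile normalization, centring, a filter below the 30th percentile, replicate blocks, a trend, array weights, clusters with no value starting with 1, and each array left out.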

Additional observations from a re-analysis of the deposited data

Results flagged for a closer look

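The 24 clusters below are those whose prednisolone effect differed between the shRNA groups by the limma interaction test at an adjusted p under 0.05. The values are log2 differences, BTG1 label minus control. Genes whose rise in control was not matched with the BTG1 label were the cluster LILRA1;LILRB1 (-4.45), SGK1 (-4.42), P2RY14 (-3.92), RASSF4 (-3.90), SLA (-3.76) and NDRG2 (-3.52), then the cluster without a symbol, 2427007 (-3.31), GSDME (-3.02), CEMIP2 (-2.89), RIN2 (-2.84) and SMIM3 (-2.77). TXNIP (-2.56), PIK3IP1 (-2.46), WDR91 (-2.36), KLF7 (-2.36), SLC31A2 (-2.17), MYRIP (-2.11), NFKBIA (-2.08) and DNMT3B (-2.08) followed. Genes whose fall in control was not matched were IL1B (3.41), PRICKLE1 (3.38), PDGFRB (2.36), PLAUR (2.24) and GNAZ (2.23). Taking 1 array from each group, the difference ran from -4.94 to -3.89 for SGK1, from -3.73 to -3.30 for NDRG2 and from 3.23 to 3.53 for PRICKLE1, and from -4.63 to -2.89 for SLA. The lineage of the arrays moves with the label in every one of them and cannot be told apart from the shRNA.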

How the results depend on the processing

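All 24 clusters kept their direction and an unadjusted p under 0.05 in each of the 16 alternatives that tested them, but the number past the adjusted threshold changed. It was 36 (19 of them among the 24; 12 positive) with quantile normalization, 14 (2 positive, 12 negative) with centred arrays, 50 (9 and 41) with the low filter, 30 (3 positive) with a variance trend, 11 (3 and 8) with array weights and 8 (3 and 5) without clusters that hold a value starting with 1. With any 1 array left out it was 0 to 24, with 0 to 6 positive and 0 to 18 negative. The numbers 1 and 2 did not clearly pair the samples (correlations of replicate differences 0.007 to 0.593). With the replicate number as a block 96 were called (33 and 63), and with a block within each shRNA 239 (58 and 181), the 24 included. PRICKLE1, NDRG2, SGK1, RASSF4 and P2RY14 were called in every alternative with all arrays that tested them. In control cells 271 called became 755 (418 up, 337 down) and 1294 (862 and 432) with these blocks and 93 (76 and 17) with array weights, 66 down when centred, and 40 to 770 (36 to 481 up, 4 to 289 down) with an array left out; with the BTG1 label 0 became 1 (1 up) with the block within each shRNA. The cause of these changes was not tested. FKBP5, IER2, SPIB and CENPE passed only with the block within each shRNA, and LSS, MVD, CCND3, DDIT3 and FAM117A only with either block. List medians changed sign for T-cell markers (0.23, lowest -0.14 with an array left out), pro-apoptotic genes (0.16, lowest -0.13, centred -0.02), receptor chaperones (0.13, centred -0.05), the amino acid response (0.05, lowest -0.17), interferon genes (0.07, centred -0.11), oxidative phosphorylation (-0.07, quantile 0.17) and MLL-fusion genes (-0.07, highest 0.02). Among named genes the only reversed difference was that of BCL2L2, 0.12, which was -0.077 with quantile normalization, -0.051 centred and -0.195 to 0.438 with an array left out, negative without the first control prednisolone array (-0.171) or BTG1 prednisolone array 1 (-0.195). Low signal limits the clusters that are dim on all 8 arrays (4124, of which 0 were called).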
